A study of Mus musculus with 6 samples.

Results

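The genes described here encode the respiratory chain beyond complex I: succinate dehydrogenase (complex II), the cytochrome bc1 complex (complex III), cytochrome c, cytochrome c oxidase (COX, complex IV) with its assembly factors, and ATP synthase (complex V). They were taken by name from the transcript annotation of the deposited libraries, as every gene whose symbol starts with Uqcr, with Cox and a digit or with Atp5, together with *Sdha* to *Sdhd*, *Cyc1* and *Cycs*. Of 68 genes found, 7 whose names mark them as pseudogenes were dropped, which left 61 of 54446 annotated genes. They comprise 4 genes of complex II, 9 of complex III, 1 of cytochrome c, 10 ubiquitous COX subunits, 7 tissue forms of COX subunits, 9 COX assembly factors, the supercomplex factor *Cox7a2l* and 18 ATP synthase genes. The remaining 2, *Cox20b* and *Cox6c2*, are annotated as processed pseudogenes, and the name *Atp5o* covers 2 gene identifiers.

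CD8+ T cells were purified by negative selection from the spleens of wild-type C57BL/6 mice aged 8 weeks, and total RNA was sequenced in 6 libraries, 2 per group. The Unstimulated group was of fresh cells without stimulation. The Control group was stimulated in culture for 72 h with plate-bound antibodies to CD3 and CD28 away from magnets. The SMF group was stimulated in the same way for 72 h on permanent magnets giving a static magnetic field (SMF) of 0.3 T. Stimulation and 72 h of culture therefore cannot be told apart here. Unstimulated cells in the field are not analysed here, so the field can be compared only in stimulated cells. Nothing in the labels or methods says that the 2 libraries of a group came from separate mice or cultures, so p-values measure the spread between these libraries, which may be technical. The file headers place Unstimulated 1 and Control 1 in one dated run folder, Unstimulated 2 and Control 2 in a second, and both SMF libraries in another. The field and the run folder therefore cannot be told apart, whereas Control and Unstimulated can also be compared within a folder.

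Electrons from succinate enter the chain at complex II, and complex III passes electrons from ubiquinol to cytochrome c, the small soluble carrier that COX then oxidizes while reducing oxygen to water. Complexes III and IV pump protons across the inner mitochondrial membrane, and ATP synthase lets them flow back through its membrane part, FO, to drive ATP formation in its catalytic head, F1. Apart from a few subunits of complexes III, IV and V made inside mitochondria, the subunits are encoded in the nucleus, and T cells are known to enlarge their mitochondrial mass when they are activated through the antigen receptor.

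Levels are given as FPKM, sequenced fragments scaled to transcript length and to the mapped fragments of the library, summed over the transcripts of a gene. Summed coverage was 67.4 and 132 Mb in Unstimulated, 64.4 and 172 Mb in Control and 259 and 227 Mb in SMF. It was lowest in Control 1 and Unstimulated 1, so low values there are the least certain. Both SMF libraries were deeper than all others, so the field and depth cannot be told apart either. All 7 CD8+ T cell markers on the list were above 0 in every library. Their sum was 762 and 956 FPKM in Unstimulated, 504 and 699 in Control and 1079 and 996 in SMF. By the thresholds given below, *Cd8a* and *Cd3d* were called higher in SMF against Control, and the other markers of that list were not. Summed markers of B, myeloid, NK and erythroid cells were highest in Unstimulated, with the values given beside *Cox6a2*. None of 37 genes of the mitochondrial chromosome was listed above 0 in any library, so the mitochondrially encoded subunits are not analysed here. Fewer cells of a type and less RNA per cell cannot be told apart in these bulk samples.

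Together the 61 genes took 0.926% and 1.01% of the FPKM of protein-coding genes in Unstimulated, 1.12% and 1.14% in Control and 1.62% and 1.58% in SMF. Without *Cox20*, whose level is described further on, the shares were 0.590% and 0.633%, 0.746% and 0.923%, and 1.41% and 1.36%. The 3 groups did not overlap on either count. Protein-coding genes themselves took 49.1% to 50.5% of all FPKM in the Unstimulated and Control libraries and 69.2% and 68.7% in SMF.

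**Figure D1:**
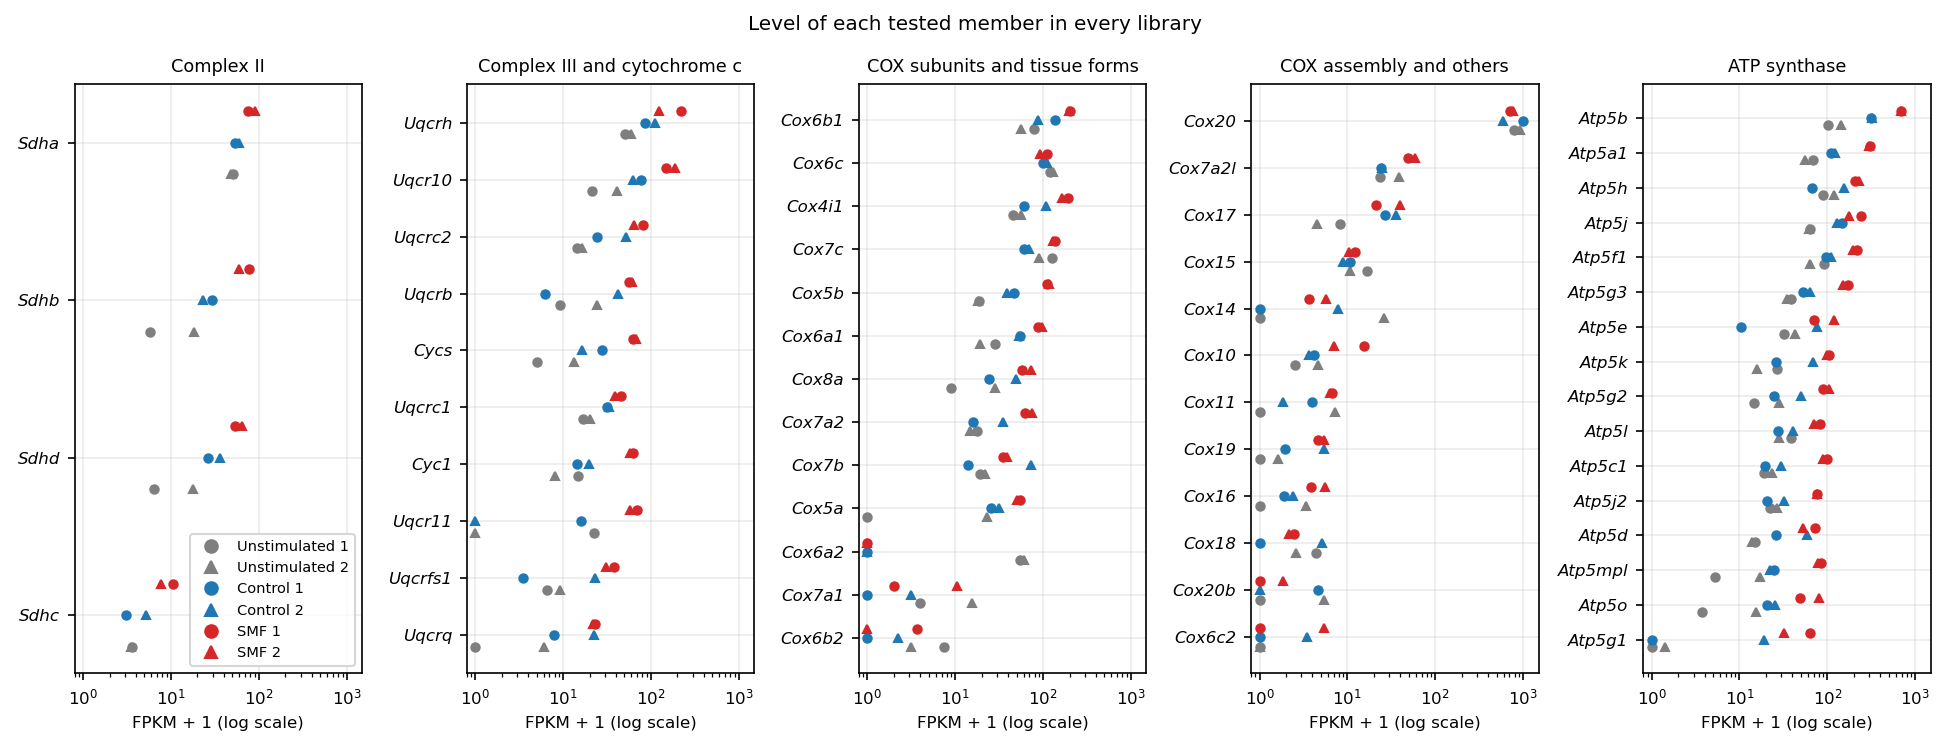
Level of each of the 55 tested genes in every library, as FPKM + 1 on a log axis, in 5 panels by complex, with genes ordered by mean level. Grey, blue and red stand for Unstimulated, Control and SMF, circles and triangles for libraries 1 and 2. For 39 genes both red points lie to the right of both blue points.

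The first question was whether these genes differed between cells stimulated in the field and cells stimulated without it. Differences were tested with limma on log2(FPKM + 1) over the 14991 genes whose mean level reached 1 FPKM, 55 of the 61 members among them. The study's thresholds were kept, so that a gene was called when its groups differed 2-fold or more and its p, before adjustment, did not exceed 0.05. Fold changes on this scale understate differences of genes near 0. In SMF against Control 19 of the 55 were called higher and none lower, where 12.5% of all genes tested were called higher and 5.72% lower. Both SMF libraries exceeded both Control libraries for 39 of the 55 genes, against 37.4% of all genes, and the reverse held for 0 of the 55, against 17.4%. The mean difference was above 0 for 50 of the 55, against 60.2% of all genes. The median log2 fold change of the 55 genes was 1.11, whereas that of all genes tested was 0.32. No member reached a Benjamini-Hochberg adjusted p of 0.05 in limma, where 22 passed 0.05 before adjustment and the lowest adjusted p was 0.136, while 0.0267% of all genes passed.

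The count of 19 depended on the libraries and on the scaling. It fell without Control 1, SMF 1 or SMF 2 and rose without Control 2, and the calls higher over all genes moved the same way. The median of the members was 0.72 without Control 1, beside 0.26 for all genes. It was 1.08 without SMF 1, 1.09 without SMF 2 and 1.29 without Control 2, beside 0.31, 0.32 and 0.35 for all genes. When every library was shifted to one median, 10 genes were called higher and none lower, the median was 0.77 and 46 of 55 genes remained above 0. The same shift turned the calls over all genes from 1868 higher and 857 lower to 877 higher and 1441 lower. Calls that held in each of the 4 fits lacking one library were those of *Atp5a1*, *Atp5b*, *Atp5c1*, *Atp5g3*, *Atp5j2*, *Cox5b* and *Cyc1*. The 9 calls lost with the shift to one median were those of *Atp5b*, *Atp5g1*, *Atp5h*, *Atp5k*, *Atp5l*, *Cox4i1*, *Cox7a2l*, *Cox7c* and *Uqcr10*, and the 4 lost with the trend on transcript length removed were those of *Atp5a1*, *Atp5b*, *Cox7a2l* and *Cycs*.

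The second question was how cells stimulated in culture without the field differed from fresh cells. In Control against Unstimulated 11 of the 55 genes were called higher and 1 lower, where 12.3% and 12.6% of all genes were called. The groups did not overlap, with Control higher, for 24 genes, against 24.8% of all genes, and with Control lower for 5, against 26.6%. The difference was above 0 for 40 genes, against 48.5%. The median of the 55 was 0.63, and that of all genes was -0.05. An adjusted p of at most 0.05 in limma was reached by *Atp5b*, *Cox5b* and *Cox17*, which rose, and *Cox6a2*, which fell, where 8.48% of all genes passed. Within the first folder the median of Control minus Unstimulated was 0.41 and 33 of 55 genes were higher; within the second it was 0.72 and 41 were higher. The 2 comparisons share the Control libraries, so a low Control library raises the first difference and lowers the second. Without Control 2 the median was 0.32, beside -0.10 for all genes, and without Unstimulated 1 it was 0.51, beside -0.07. In both fits fewer members, and fewer of all genes, were called higher. Without Control 2 more members, and more of all genes, were called lower. In this comparison the replicate number also marks the run folder. With that number as a block 12 members were called higher and 2 lower, beside 1817 and 1851 of all 14991 genes.

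Against Unstimulated, the SMF group had 36 genes called higher and 1 lower, where 22.4% and 14.8% of all genes were called. SMF lay above Unstimulated with no overlap for 44 genes, against 39.7% of all genes, and below it for 4, against 26%. The difference was above 0 for 46 genes, against 56.8%. Of the 55, 29 had an adjusted p of at most 0.05 in limma, where 23.6% of all genes passed. The median was 1.80, beside 0.27 for all genes.

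**Figure D2:**
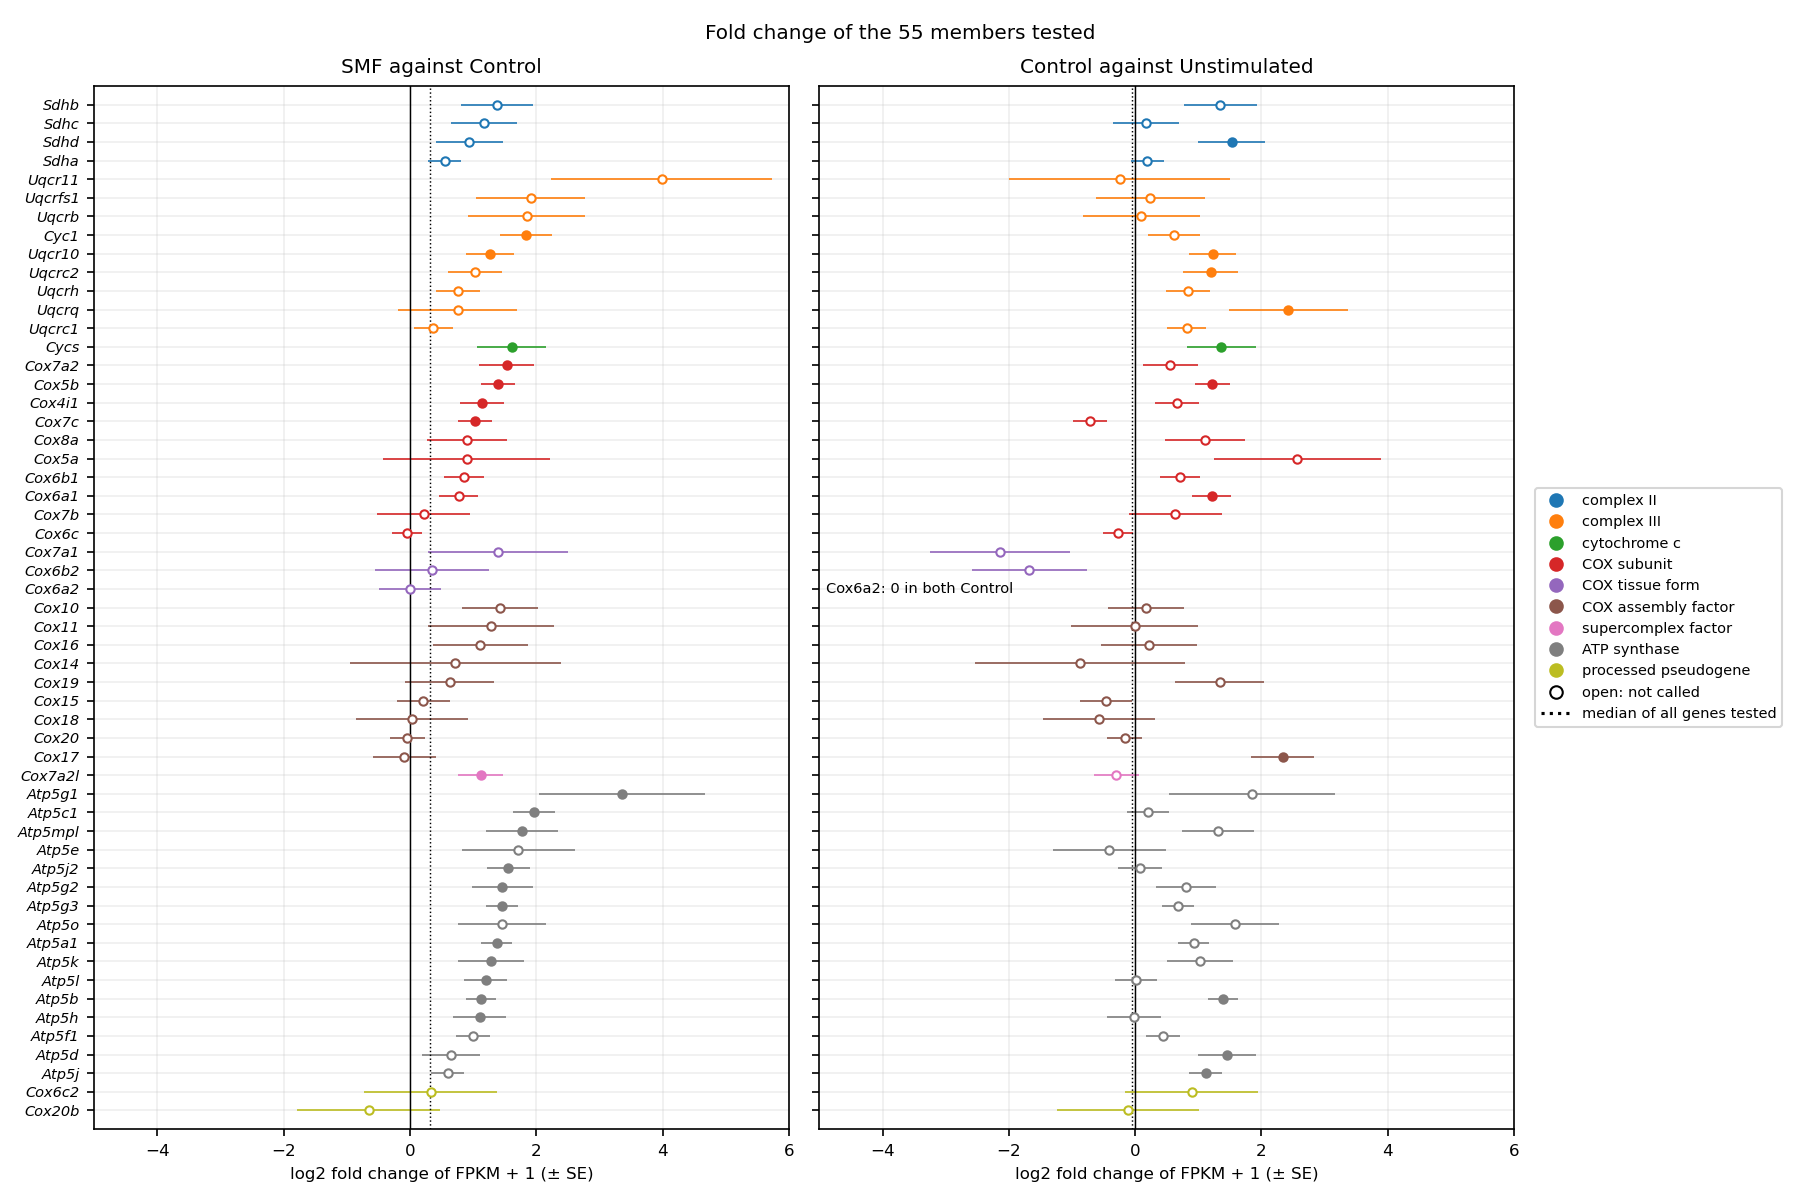
Log2 fold change of FPKM + 1, with its standard error, for the 55 genes tested, coloured by complex, in SMF against Control and in Control against Unstimulated. Filled points are called, open points are not, and the dotted line is the median of all genes tested, 0.32 and -0.05. All 16 ATP synthase genes lie above 0 in SMF against Control, and *Cox6a2*, at 0 in both Control libraries, has no point in the second panel.

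Complex II has 4 subunits, all nuclear-encoded. *Sdha*, the flavoprotein that oxidizes succinate, stood at 49.8 and 47.2 FPKM in Unstimulated, 53.0 and 58.2 in Control and 74.5 and 89.8 in SMF. *Sdhb*, the iron-sulphur subunit (ENSMUSG00000009863.14, chr4:140961203-140979193, GRCm38), stood at 4.77 and 17.3 FPKM, 28.6 and 22.1, and 76.7 and 58.4 in the same order of groups. Both genes thus had 3 groups that did not overlap, lowest in Unstimulated and highest in SMF. *Sdhd*, a membrane anchor, stood at 5.40 and 16.8 FPKM, 25.6 and 34.8, and 53.0 and 63.8. *Sdhc*, the other anchor, was the lowest of the complex, at 2.62 and 2.47 FPKM, 2.04 and 4.26, and 9.53 and 6.71. SMF was above Control in both libraries for all 4 genes, but none was called. The log2 fold changes lay between 0.55 ± 0.26 (SE) for *Sdha* and 1.38 ± 0.58 for *Sdhb*, and the lowest limma adjusted p was 0.243. *Sdhd* rose in Control against Unstimulated by a log2 fold change of 1.53 ± 0.53, with an adjusted p of 0.131 in limma. That call was lost without Control 1, Control 2 or Unstimulated 1.

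Complex III is built on cytochrome b, cytochrome c1 and the Rieske iron-sulphur protein. *Cyc1*, cytochrome c1 (ENSMUSG00000022551.8, chr15:76343523-76346260), stood at 13.8 and 7.12 FPKM in Unstimulated, 13.2 and 18.7 in Control and 61.7 and 56.3 in SMF. *Uqcrfs1*, the Rieske protein, stood at 5.48 and 8.11 FPKM, 2.52 and 22.4, and 37.0 and 29.6. The 2 Control libraries lay far apart for *Uqcrfs1*, one below and one above Unstimulated, whereas for *Cyc1* Control overlapped Unstimulated and SMF stood clear of both. *Cyc1* rose in SMF against Control by a log2 fold change of 1.84 ± 0.41, with an adjusted p of 0.141 in limma. *Uqcrfs1* had a difference of 1.91 ± 0.87 and was not called.

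The core proteins face the matrix. *Uqcrc1*, core protein 1, stood at 15.9 and 19.3 FPKM in Unstimulated, 30.7 and 32.4 in Control and 44.8 and 37.8 in SMF. *Uqcrc2*, core protein 2, stood at 13.3 and 15.6 FPKM, 23.3 and 50.5, and 80.7 and 63.1. For both, the 3 groups did not overlap. Neither was called in SMF against Control, with log2 fold changes of 0.37 ± 0.30 and 1.03 ± 0.43, and *Uqcrc1* turned to -0.0096 when the trend on transcript length was removed. *Uqcrc2* rose in Control against Unstimulated by 1.20 ± 0.43, with an adjusted p of 0.142 in limma, a call lost without Control 2 or without either Unstimulated library. It shares 504 bases with exons of *Pdzd9* on the opposite strand, which was listed at 61.6 to 121 FPKM.

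Among the small subunits of complex III, *Uqcr10* stood at 20.3 and 39.6 FPKM in Unstimulated, 75.3 and 61.1 in Control and 146 and 185 in SMF. *Uqcrh*, the hinge protein, stood at 49.7 and 57.8 FPKM, 85.0 and 109, and 219 and 123. These genes kept the 3 groups apart, and *Uqcr10* was called in both comparisons, by 1.26 ± 0.38 in SMF against Control (adjusted p 0.173, limma) and 1.23 ± 0.38 in Control against Unstimulated (adjusted p 0.102). The first call was lost without SMF 2 or either Control library, and the second without Unstimulated 1 or either Control library. *Uqcrb* stood at 8.34 and 23.6 FPKM, 5.23 and 41.2, and 55.8 and 59.1. *Uqcrq* stood at 0 and 5.07 FPKM, 6.79 and 21.5, and 22.0 and 20.6. *Uqcr11* was listed at 21.5 and 0 FPKM, 15.1 and 0, and 68.2 and 57.5. In these 3 genes 1 library of a pair lay far below the other, and *Uqcr11* was at 0 in 1 Unstimulated and 1 Control library. *Uqcrq* rose in Control against Unstimulated by 2.42 ± 0.94 (adjusted p 0.165, limma), a call lost without Unstimulated 1 or either Control library. Its SMF and Control libraries overlapped, and the difference between them was 0.76 ± 0.94, or -0.0083 without Control 1.

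Cytochrome c has its own reason for care, because annotated copies with nearly the same coding sequence were also listed above 0. *Cycs* (ENSMUSG00000063694.5, chr6:50562563-50566538, minus strand) stood at 4.10 and 12.3 FPKM in Unstimulated, 26.7 and 15.3 in Control and 61.1 and 66.8 in SMF, with no overlap between the groups. It rose by 1.61 ± 0.54 in SMF against Control (adjusted p 0.191, limma) and by 1.36 ± 0.54 in Control against Unstimulated (adjusted p 0.175). The first call was lost without Control 2 or either SMF library, and the second without Control 1, Control 2 or Unstimulated 1. The first was also lost with the length trend removed, and the second with the replicate block. The first 150 of the 318 coding bases of *Cycs* (GENCODE M21, GRCm38, chr6:50565511-50565660, minus strand) are shown because few bases set it apart from its copies, and capitals mark the 4 bases, the only such bases in the coding sequence, at which a copy has another base:
Cycs: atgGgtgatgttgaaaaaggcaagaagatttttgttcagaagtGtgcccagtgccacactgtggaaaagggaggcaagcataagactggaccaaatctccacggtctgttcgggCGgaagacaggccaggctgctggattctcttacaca
The coding bases of *Gm10053* were identical to these. Those of *Gm10108* differed by 2 substitutions, G4A and G44A, counted from the first base of the start codon with the *Cycs* base first. Those of *Gm13772* differed by 2 substitutions, C115T and G116A, and by 1 base missing or added. The 3 copies together stood at 40.4 and 11.4 FPKM in Unstimulated, 110.0 and 55.7 in Control and 165 and 184 in SMF, more than *Cycs* itself in 5 of 6 libraries. The copies were higher in Unstimulated 1 than in Unstimulated 2, whereas *Cycs* itself was lower. How reads were shared out among the 4 genes was not tested.

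COX contributed 10 ubiquitous nuclear subunits, of which 4 were called in SMF against Control. *Cox5b* (ENSMUSG00000061518.11, chr1:36691449-36693681), which binds zinc in the matrix part of the enzyme, stood at 17.5 and 17.3 FPKM in Unstimulated, 46.1 and 38.1 in Control and 109 and 114 in SMF. *Cox4i1*, the form of subunit 4 found in most tissues, stood at 44.3 and 55.5 FPKM, 59.3 and 106, and 189 and 163. In both, Unstimulated was lowest and SMF highest, with no overlap between groups. *Cox5b* rose by 1.39 ± 0.27 in SMF against Control (adjusted p 0.136, limma) and by 1.22 ± 0.27 in Control against Unstimulated (adjusted p 0.0475). *Cox4i1* rose by 1.14 ± 0.35 in SMF against Control (adjusted p 0.174, limma), a call lost without Control 1 or either SMF library.

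*Cox7a2* stood at 16.7 and 13.6 FPKM in Unstimulated, 15.1 and 33.7 in Control and 62.1 and 73.0 in SMF. *Cox7c* stood at 124 and 90.1 FPKM, 60.1 and 68.0, and 136 and 127. Both are small membrane subunits, and they differed in Control against Unstimulated. Control overlapped Unstimulated for *Cox7a2* and lay below it for *Cox7c*. In SMF against Control *Cox7a2* rose by 1.53 ± 0.44 and *Cox7c* by 1.03 ± 0.27 (adjusted p 0.167 and 0.155, limma). Both calls were lost without Control 1 or without SMF 1, and that of *Cox7a2* also without SMF 2. With libraries shifted to one median *Cox7c* had a difference of 0.69 and was not called. *Cox7c* against Unstimulated had a difference of 0.31 ± 0.27 in SMF.

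Of the 6 other subunits, *Cox6a1* and *Cox6b1* passed the limit on p but missed that of 2-fold in SMF against Control. *Cox6a1*, the liver and general form of subunit 6a, stood at 27.7 and 17.9 FPKM in Unstimulated, 54.0 and 51.9 in Control and 86.7 and 95.4 in SMF. *Cox6b1* stood at 77.9 and 55.8 FPKM, 136 and 86.6, and 199 and 195. Both kept the groups apart in this order, and *Cox6a1* rose in Control against Unstimulated by 1.21 ± 0.31 (adjusted p 0.0667, limma), a call lost without Unstimulated 2. *Cox8a* stood at 7.84 and 27.7 FPKM, 23.1 and 47.9, and 56.0 and 71.4. *Cox7b* stood at 18.0 and 20.8 FPKM, 12.9 and 71.0, and 34.3 and 37.5. The Control libraries of *Cox7b* lay on either side of all others. *Cox6c*, singled out after its values were seen, stood at 119.8 and 130.4 FPKM in Unstimulated, 98.2 and 109 in Control, and 109 and 91.0 in SMF. It was the one ubiquitous subunit with a difference below 0 in SMF against Control, at -0.05 ± 0.24, and its libraries overlapped. *Cox5a* ranged from 0 to 53.3 FPKM and was called in neither comparison.

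The tissue forms of COX subunits, which replace the ubiquitous ones in heart, skeletal muscle, lung or testis, were mostly listed at 0 or low. An FPKM of 0 does not show that a gene was not expressed, since 1 to 5 of the 42 genes other than tissue forms, assembly factors, *Cox7a2l* and pseudogenes were also at 0 in each library. *Cox4i2*, *Cox7b2*, *Cox8b* and *Cox8c* were listed at 0 in all 6 libraries. *Cox6b2*, the testis form, was listed at 6.38 and 2.12 FPKM in Unstimulated, 0 and 1.26 in Control and 2.67 and 0 in SMF. *Cox7a1*, the heart and muscle form, was listed at 2.92 and 14.4 FPKM, 0 and 2.11, and 1.01 and 9.59. For both, the SMF and Control libraries overlapped. *Cox6a2* (ENSMUSG00000030785.8, chr7:128205435-128206387, minus strand), the heart and muscle form of subunit 6a, was listed at 53.1 and 59.8 FPKM in Unstimulated and at 0 in all 4 stimulated libraries. It made up 65.7% and 76.9% of the *Cox6a1* and *Cox6a2* sum in Unstimulated. Its fall in Control against Unstimulated passed an adjusted p of 0.00707 in limma, the lowest among the 55 genes, and it was the only tissue form with a call. Its 3 exons are listed at one and the same mean coverage as the transcript, 4.79 in Unstimulated 1 and 10.4 in Unstimulated 2, so the files do not show how reads spread over the gene. It shares 70 bases with *Itgad* on the opposite strand, which was listed at 7.47 and 2.25 FPKM in Unstimulated and at 0 elsewhere. Markers of other cells were also lower in stimulated libraries: *Lyz2*, a myeloid gene, stood at 42.4 and 74.0 FPKM in Unstimulated and at 0 in the 4 stimulated libraries. Over whole lists, the 6 myeloid genes summed to 120.4 and 157 FPKM in Unstimulated and to 47.0 to 53.8 in stimulated libraries, where *Csf1r* made up most of the sum, and the 2 NK cell genes to 13.8 and 7.66 and to 0. The sum of 3 B cell genes was 104 and 83.0 FPKM in Unstimulated, 23.3 and 7.63 in Control and 4.50 and 2.43 in SMF. The 5 erythroid genes summed to 18.3 and 21.8 FPKM, 5.21 and 7.16, and 10.1 and 1.51. *Cd4*, the one CD4+ T cell marker listed, stood at 2.05 and 4.68 FPKM, 0 and 2.18, and 0 in both SMF libraries. The 2 platelet genes summed to 0 and 2.24 FPKM in Unstimulated, 0 in Control and 9.43 and 0 in SMF. The part of other cells in the level of *Cox6a2* was not tested.

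**Figure D3:**
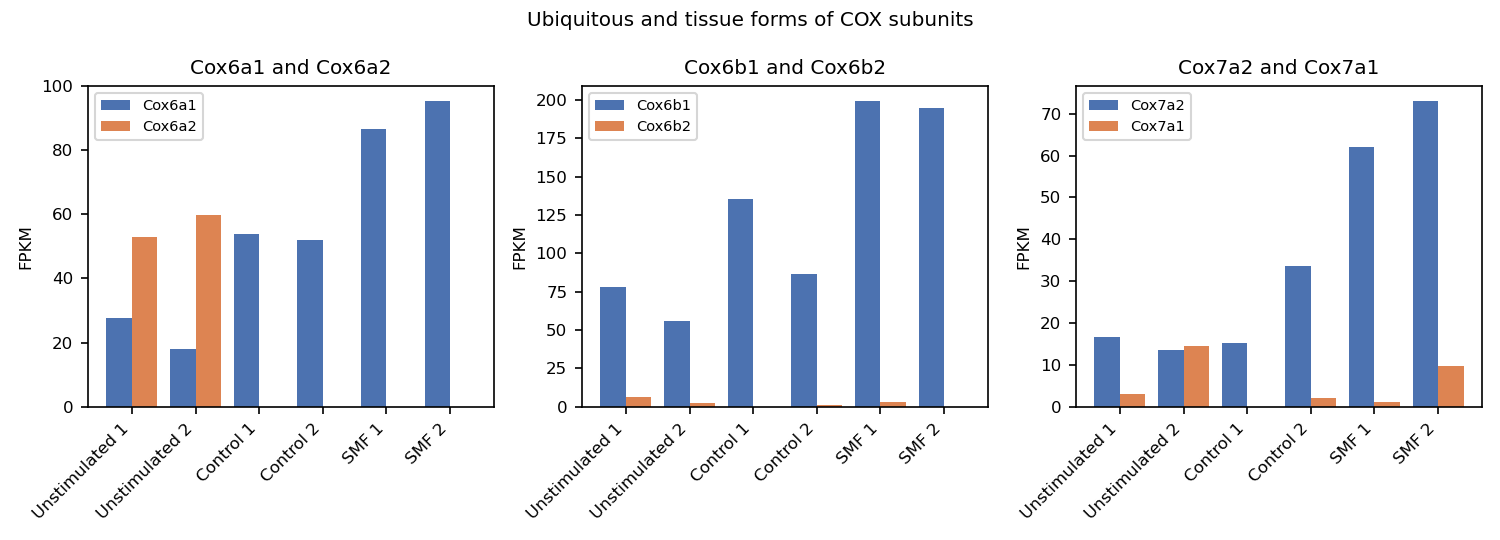
FPKM of 3 pairs of COX subunit genes in each of the 6 libraries, with the ubiquitous form in blue and the tissue form in orange. *Cox6a2* stands above *Cox6a1* in both Unstimulated libraries, at 53.1 and 59.8 against 27.7 and 17.9, and at 0 in the other 4.

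Of the 16 ATP synthase genes tested, 11 were called in SMF against Control, with a median log2 fold change of 1.41 beside 0.32 for all genes. Genes of the F1 head gave 3 calls of 5. *Atp5b*, the catalytic beta subunit (ENSMUSG00000025393.12, chr10:128083273-128090391), stood at 101 and 142 FPKM in Unstimulated, 309.7 and 324 in Control and 691 and 688 in SMF. *Atp5a1*, the alpha subunit, stood at 68.1 and 54.0 FPKM, 110.2 and 122, and 309 and 295. Replicates lay close together for both, and all 3 groups were apart. *Atp5c1*, the gamma subunit of the rotating stalk (ENSMUSG00000025781.14, chr2:10056016-10080510), stood at 18.1 and 22.2 FPKM, 18.5 and 28.9, and 97.8 and 89.2. For the gamma subunit Control overlapped Unstimulated and only SMF stood apart.

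*Atp5c1* rose by 1.97 ± 0.34 in SMF against Control, *Atp5a1* by 1.37 ± 0.24 and *Atp5b* by 1.12 ± 0.24, with adjusted p of 0.136, 0.136 and 0.140 in limma. With the libraries shifted to one median *Atp5b* was no longer called, and with the length trend removed neither *Atp5b* nor *Atp5a1* was. In Control against Unstimulated *Atp5b* rose by 1.39 ± 0.24 (adjusted p 0.0247, limma), and the call held without each library in turn. The FPKM of *Atp5b* was 1.49 and 2.63 times that of *Atp5a1* in Unstimulated, 2.81 and 2.65 times in Control and 2.24 and 2.33 times in SMF, although the enzyme holds alpha and beta in equal numbers. *Atp5d*, the delta subunit, stood at 14.0 and 12.8 FPKM in Unstimulated, 25.2 and 58.5 in Control and 71.5 and 51.9 in SMF. It rose in Control against Unstimulated by 1.46 ± 0.46 (adjusted p 0.106, limma), a call lost without either Unstimulated library or Control 2, and its SMF and Control libraries overlapped. *Atp5e*, the epsilon subunit, stood at 31.5 and 41.9 FPKM in Unstimulated, 9.38 and 75.3 in Control and 69.8 and 119.6 in SMF. It had a log2 fold change of 1.71 ± 0.89 in SMF against Control and was not called in any comparison.

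The membrane ring of ATP synthase is made of identical c subunits, which 3 genes encode with different import sequences. *Atp5g3* stood at 37.4 and 33.9 FPKM in Unstimulated, 52.4 and 63.2 in Control and 169 and 152 in SMF. *Atp5g2* stood at 13.5 and 27.0 FPKM, 23.8 and 49.1, and 88.8 and 104. *Atp5g1* was listed at 0 and 0.44 FPKM, 0 and 17.9, and 61.7 and 31.0. SMF was above the other libraries for each gene, while Control overlapped Unstimulated for *Atp5g1* and *Atp5g2*. Summed over the 3 genes the level was 50.9 and 61.4 FPKM, 76.3 and 130.1, and 319 and 287. *Atp5g3* gave the largest part in every library, 48.6% to 73.5%, and *Atp5g1* gave 0% and 0.712% in Unstimulated, 0% and 13.7% in Control and 19.3% and 10.8% in SMF. All 3 were called in SMF against Control, with log2 fold changes of 1.46 ± 0.26 for *Atp5g3*, 1.46 ± 0.48 for *Atp5g2* and 3.37 ± 1.32 for *Atp5g1* (adjusted p 0.136, 0.186 and 0.226, limma). The last rests on a Control library at 0, and the calls of *Atp5g1* and *Atp5g2* were lost without Control 1 or either SMF library.

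The peripheral stalk and the small membrane subunits followed. *Atp5h*, subunit d, stood at 87.6 and 118 FPKM in Unstimulated, 66.0 and 152 in Control and 204 and 231 in SMF. *Atp5j*, coupling factor 6, stood at 63.0 and 61.3 FPKM, 144 and 128, and 242 and 175. *Atp5f1*, subunit b, stood at 89.9 and 62.0 FPKM, 96.2 and 108, and 214 and 195. All 3 belong to the stalk that holds the head still, and all had SMF above Control, but only *Atp5h* was called there, by 1.11 ± 0.42 (adjusted p 0.221, limma), a call lost without Control 1 or either SMF library. *Atp5j* rose in Control against Unstimulated by 1.11 ± 0.26 (adjusted p 0.0532, limma) and missed the limits in SMF against Control, at 0.60 ± 0.26. *Atp5f1* had a difference of 0.995 ± 0.273 in SMF against Control, just under the 2-fold limit.

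*Atp5j2*, subunit f, stood at 21.2 and 25.9 FPKM in Unstimulated, 19.4 and 31.4 in Control and 74.8 and 74.6 in SMF. *Atp5l*, subunit g, stood at 37.9 and 27.1 FPKM, 26.7 and 39.2, and 81.9 and 69.7. *Atp5k*, subunit e, stood at 25.6 and 15.0 FPKM, 24.8 and 67.2, and 103 and 99.2. Control overlapped Unstimulated in each of these membrane subunits, and SMF lay above every other library. *Atp5mpl* stood at 4.20 and 16.2 FPKM, 23.6 and 21.5, and 82.7 and 76.7. *Atp5o*, the stalk subunit that confers oligomycin sensitivity, stood at 2.70 and 14.5 FPKM, 19.5 and 24.1, and 47.3 and 79.3 under its main identifier and at 0 under the second. Of these, *Atp5j2*, *Atp5l*, *Atp5k* and *Atp5mpl* were called in SMF against Control, with log2 fold changes of 1.56 ± 0.34, 1.20 ± 0.34, 1.28 ± 0.52 and 1.78 ± 0.57 (adjusted p 0.140 to 0.234, limma). The call of *Atp5j2* held without each library in turn. That of *Atp5l* was lost without SMF 1 or Control 1, that of *Atp5k* without Control 1 or either SMF library, and that of *Atp5mpl* without any one of the 4. *Atp5s*, a coupling factor, was listed at 0 to 3.51 FPKM and was below the limit for testing.

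The 9 COX assembly factors that the naming rule takes insert copper and haem and mature the core subunits. None was called in SMF against Control, and 3 had both SMF libraries above both Control libraries, where 4 of 10 COX subunits were called and 8 had no overlap. Over all genes 12.5% were called higher and 37.4% had no overlap with SMF higher. The median log2 fold change was 0.63 for assembly factors and 0.90 for subunits. In Control against Unstimulated the medians were -0.01 and 0.69. Within each library the median log2(FPKM + 1) of the subunits exceeded that of the assembly factors by 3.19 and 2.44 in Unstimulated, 3.70 and 3.49 in Control and 3.86 and 3.90 in SMF. The gap was wider in SMF than in Control by 0.29, which is less than the pooled SD between replicates of 0.32, and wider in Control than in Unstimulated by 0.78. With the length trend removed it was wider in SMF than in Control by 0.52, beside a pooled SD of 0.39. Transcripts of the 2 lists differ in length, with medians of 1275 bases for assembly factors and 624 for subunits. The list of 9 leaves out COX assembly factors with other names. Among the complex IV genes outside the rule, *Cmc2*, *Coa3*, *Coa5*, *Higd2a*, *Lrpprc* and *Surf1* were called higher in SMF against Control. *Cmc1* was called lower, and the rest of those tested were not called.

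**Figure D4:**
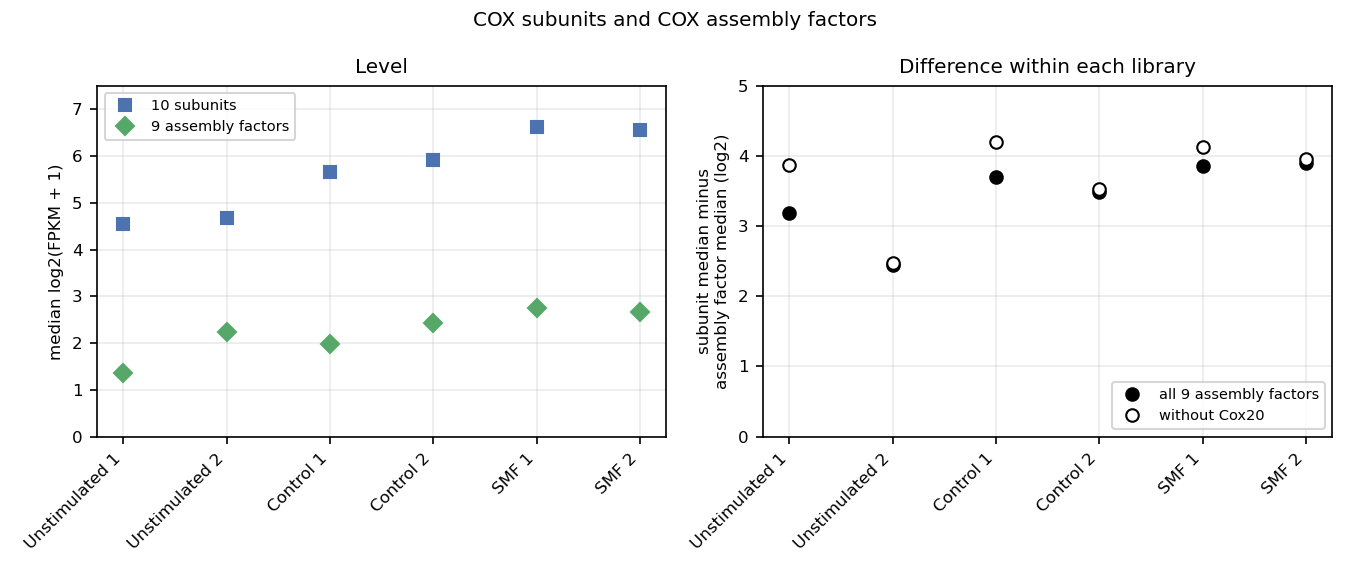
Left, median log2(FPKM + 1) of 10 COX subunits and 9 COX assembly factors in each library. Right, subunit median minus assembly factor median in each library, with all assembly factors (filled) and without *Cox20* (open). The filled points run from 2.44 in Unstimulated 2 to 3.90 in SMF 2. Both filled Control points lie below both filled SMF points, whereas the open point of Control 1, at 4.20, lies above both open SMF points.

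The 3 assembly factors with the highest mean level were *Cox20*, *Cox17* and *Cox15*. *Cox17*, the copper chaperone (ENSMUSG00000046516.10, chr16:38346991-38352763), stood at 7.31 and 3.52 FPKM in Unstimulated, 26.0 and 34.4 in Control and 19.96 and 39.3 in SMF. It rose in Control against Unstimulated by 2.33 ± 0.50 (adjusted p 0.0428, limma), a call that held without each library in turn. Its SMF libraries lay on either side of both Control libraries, with a difference of -0.09 ± 0.50. *Cox15*, needed to make haem A, stood at 15.8 and 9.77 FPKM in Unstimulated, 9.86 and 7.83 in Control and 11.2 and 9.49 in SMF, and its groups overlapped in SMF against Control. The other 6 factors ranged from 0 to 25.3 FPKM.

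*Cox20*, which chaperones COX subunit 2 (ENSMUSG00000026500.6, chr1:178319130-178322693), stood at 796 and 922 FPKM in Unstimulated, 985 and 593 in Control and 716 and 772 in SMF, and had the highest mean level of all 61 genes. Its coverage was uneven. Exon 1 had a mean coverage of 0 to 2.19 reads per base in either transcript. In the transcript with 4 exons, exon 4 had 40.2 to 149 and exons 2 and 3 had 0 to 7.67. Exon 2 of the shorter transcript had 60.8 to 187. Exons 2 and 3 of the longer transcript lie within exon 2 of the shorter one, so their low values do not by themselves show a gap in coverage. Exon 4 of the longer transcript and exon 2 of the shorter one, 213 and 591 bases, lie opposite exons of *Hnrnpu*, an abundant nuclear RNA-binding protein gene on the other strand, for all of their 804 bases. *Hnrnpu* itself was listed at 138 to 259 FPKM. The libraries were made with a strand-keeping kit and assembled with a stranded setting, and the part of *Hnrnpu* reads in the level of *Cox20* was not tested. Without *Cox20* the mean gap between subunits and assembly factors was wider in SMF than in Control by 0.18, beside a pooled SD between replicates of 0.64. This gap was 4.20 and 3.52 in Control and 4.13 and 3.96 in SMF, so the groups overlapped.

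**Figure D5:**
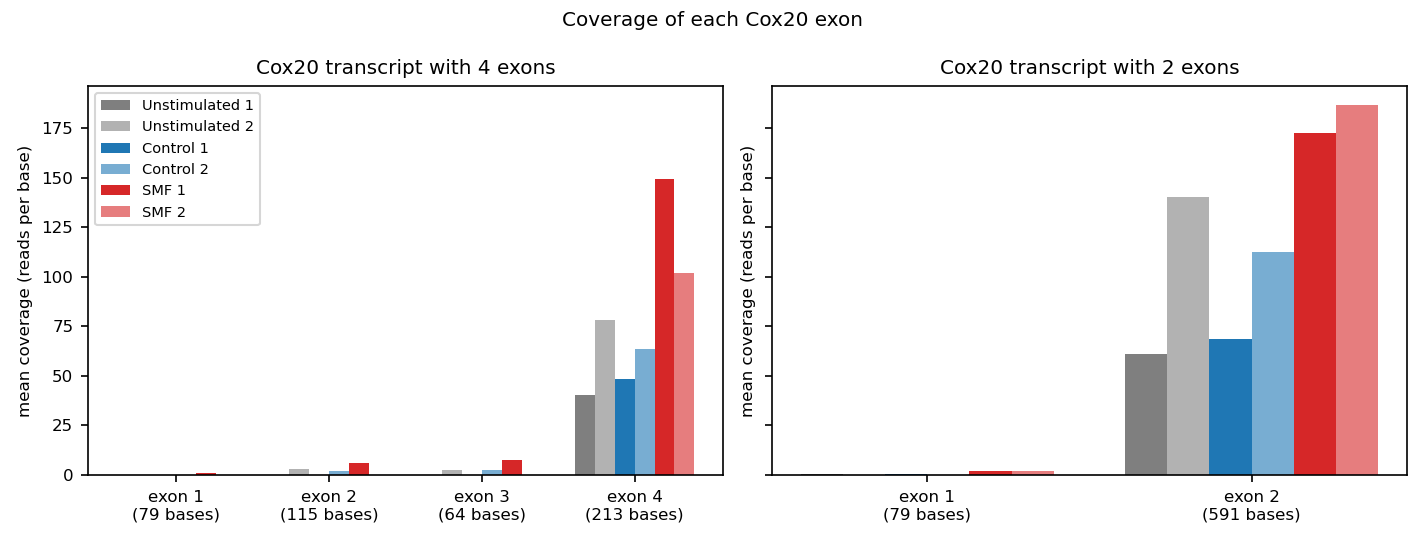
Mean coverage in reads per base of each exon of the 2 annotated *Cox20* transcripts in the 6 libraries, as the files give it and not scaled for depth. Exon 4 of the longer transcript (40.2 to 149) and exon 2 of the shorter (60.8 to 187) carry nearly all the coverage, and exon 1 at most 2.19. Exons 2 and 3 of the longer transcript lie within exon 2 of the shorter one.

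*Cox7a2l*, a factor that links complexes III and IV into supercomplexes, stood at 22.6 and 37.6 FPKM in Unstimulated, 23.4 and 23.8 in Control and 48.0 and 57.1 in SMF. SMF lay above all other libraries, and the log2 fold change in SMF against Control was 1.12 ± 0.35 (adjusted p 0.179, limma), a call lost without SMF 2 or either Control library. The fold change was 0.78 with libraries shifted to one median and 0.85 with the length trend removed, and neither was called. Unstimulated and Control overlapped.

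Other genes overlap or resemble members too. Exons of 19 of the 61 genes share bases with another gene, 15 of them on the opposite strand and 5 on the same strand, and 8 have a transcript elsewhere in the genome that matches over at least 200 bases at 95% identity or more. Of the 31 tested genes with neither, 10 were called higher in SMF against Control with a median of 1.12, and of the 24 tested genes with either, 9 were called with a median of 1.11. *Cox5b*, *Cox7c*, *Cox7a2l*, *Atp5g1*, *Atp5g2*, *Atp5h* and *Atp5l*, all called, have such a copy, as *Cycs* does. The members were also short, with a median transcript length of 763 bases beside 1847 for all genes tested. Among the 3748 shortest genes, up to 875 bases, the median log2 fold change in SMF against Control was 0 over all genes and 1.11 over the 31 members there.

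Promoter windows of the 250 bases before the start site were taken from RefSeq (GRCm38.p6) and searched on both strands for the core motif of the nuclear respiratory factor NRF1, for CCGGAAG, bound by GABPA, and for AAGATGG, bound by YY1, factors known to act on genes of the respiratory chain. Windows were matched for 44 of 60 symbols. Of the 48 windows of these members, 39 led into an annotated transcript start, and those of *Atp5g2*, *Atp5h* and *Sdhd* were among the rest. The NRF1 motif was found in 7 of the 44 (15.9%, beside 4.23% of all 27025 genes with a window), the GABPA letters in 12 (27.3%, beside 7.83%) and the YY1 letters in 2 (4.55%, beside 5.18%). NRF1 matches were found for *Atp5c1*, *Atp5g2*, *Atp5h*, *Atp5k*, *Cox6a1*, *Sdha* and *Sdhd*. Of these, *Atp5c1*, *Atp5g2*, *Atp5h* and *Atp5k* were called in SMF against Control, where 19 of the 55 members tested and 12.5% of all genes were called higher. Of the 12 genes with the GABPA letters, only *Atp5h* and *Atp5l* were called there. A link between motifs and calls was not tested. Stretches before the start of *Cox6a1* (chr5:115348968-115349138, minus strand) and *Atp5k* (chr5:108434440-108434529, minus strand) are shown as examples of members with an NRF1 match, with the matches to the NRF1 and GABPA motifs in capitals:
Cox6a1: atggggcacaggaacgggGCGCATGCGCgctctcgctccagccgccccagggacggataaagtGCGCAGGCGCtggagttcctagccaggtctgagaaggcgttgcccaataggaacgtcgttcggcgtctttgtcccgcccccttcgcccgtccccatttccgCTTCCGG
Atp5k: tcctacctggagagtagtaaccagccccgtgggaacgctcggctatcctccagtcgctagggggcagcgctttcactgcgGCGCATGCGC
The stretch of *Cox6a1* holds 2 NRF1 matches and, at its end, 1 GABPA match on the other strand, and that of *Atp5k* 1 NRF1 match. At their ends the 2 stretches reach 14 and 9 bases into an annotated exon of the gene. The GABPA match of *Cox6a1* lies within that exon, and the NRF1 match of *Atp5k* lies in it for 9 bases. The stretch of *Cox6a1* also shares 9 bases with an exon of *Gm42903*. A match of letters is a description and does not show binding.

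Genes that work beside the members, outside the naming rule, were listed from known assembly factors and regulators of the same complexes: 34 genes, of which 30 were tested. In SMF against Control 9 were called higher and 2 lower, with a median log2 fold change of 1.25, where 12.5% and 5.72% of all genes were called. In Control against Unstimulated 5 were called higher and 2 lower, where 12.3% and 12.6% of all genes were called. The 9 called higher in SMF against Control were *Cmc2*, *Coa3*, *Coa5*, *Hccs*, *Higd2a*, *Lrpprc*, *Surf1*, *Tmem70* and *Uqcc1*. The 2 called lower were *Cmc1* and *Ttc19*. The 4 with values given here were chosen after their values were seen, and both genes called lower are among them. *Hccs*, which attaches haem to cytochromes c and c1, stood at 6.24 and 1.56 FPKM in Unstimulated, 7.27 and 6.50 in Control and 25.7 and 21.2 in SMF, and was called higher in SMF against Control by 1.63 ± 0.58 (adjusted p 0.203, limma). *Ttc19*, which takes part in complex III assembly, went the other way, at 65.7 and 90.1 FPKM, 55.7 and 59.9, and 15.2 and 16.6. *Ttc19* fell by 1.80 on the log2 scale, with an SE of 0.30 and an adjusted p of 0.136 in limma. *Cmc1*, a COX assembly factor, stood at 110.5 and 93.4 FPKM, 43.1 and 39.8, and 14.4 and 23.9, and fell by 1.12 in SMF against Control (adjusted p 0.173, limma). *Atpif1*, the inhibitor of ATP hydrolysis by the synthase, stood at 4.88 and 7.22 FPKM, 27.9 and 57.0, and 63.1 and 56.3. It rose in Control against Unstimulated by 2.56 ± 0.43 (adjusted p 0.0249, limma), and its SMF and Control libraries overlapped.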

How the data were processed

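Per the labels and file headers, the authors trimmed reads with Trimmomatic 0.36, aligned them to GRCm38 with HISAT2 (version not given in the sources used here) and estimated transcripts of GENCODE M19 with StringTie 1.3.5 in stranded mode. The deposited FPKM of each transcript were summed per gene identifier. The series table holds 3 value columns that matched no sample and were not used. Levels were compared as log2(FPKM + 1) with limma 3.58.1 in R 4.3.3, with a variance trend, 1 fit over the 3 groups of 2 libraries and Benjamini-Hochberg adjustment over all 14991 genes tested. Read counts per gene were not used, so depth is known only as covered bases, and precision rests on 2 libraries per group. The self-test on simulated data for SMF against Control (14991 genes) called 40.9%, 83.6% and 97.0% of genes changed 2-, 4- and 8-fold and 3.96% of unchanged genes. Its noise was independent between genes and libraries, with no difference in run folder or depth. These rates therefore need not hold for the real SMF and Control libraries.

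Members and gene lists were chosen with earlier results of these data known. Values per library are given for every Sdh and Uqcr gene, *Cyc1*, *Cycs*, COX isoform pairs, the 3 assembly factors and 6 Atp5 genes with the highest mean, and every other member called in SMF against Control or Control against Unstimulated or with an adjusted p of at most 0.05. Copies were sought with minimap2 2.31-r1302 and edlib 1.3.9.post1 in GENCODE M21. Alternatives covered the pseudocount, the filter, TPM, scaling, the length trend, the variance trend, the samples fitted, the replicate block, the call rule and each library left out. Those without *Cox20* and without overlapping or copied members were added after seeing the data. One gene of a marker list is not reported here, and the sum of its list leaves it out.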

Additional observations from a re-analysis of the deposited data

How the results depend on the processing

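Depth was lowest in Control 1 and Unstimulated 1 and highest in both SMF libraries. With 2 libraries per group, a single library moved most counts. Of the values for single genes under the alternatives, 900 kept their direction and side of the thresholds, 187 kept the direction and lost the call, 14 gained one and 2 reversed. These values pool all comparisons and include complex II and III genes that were not called in SMF against Control. With the adjusted p as the rule, all 19 calls in SMF against Control were lost, so none held under every alternative. The causes were not tested.

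For SMF against Control, 19 members were called higher. With the libraries shifted to one median the count was 10 and the median log2 fold change 0.77. With the length trend removed the median was 0.87. With an adjusted p of at most 0.05 in limma as the rule the count was 0, and it was 10 among members with neither overlap nor copy. With each library left out it ran from 9 to 23, and the median from 0.72 to 1.29. *Uqcrc1* reversed to -0.0096 with the length trend removed. *Uqcrq* ran from -0.0083 without Control 1 to 1.52 without Control 2.

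For Control against Unstimulated, 11 members were called higher and 1 lower. The count higher was 7 with these 2 groups alone in the fit, 3 by adjusted p in limma and 5 among members with neither overlap nor copy. With each library left out it ran from 6 to 15, the count lower from 1 to 3, and the median from 0.32 to 1.001. For SMF against Unstimulated the median of 1.80 became 2.09 with a pseudocount of 0.1, 2.05 with the limit on the mean raised to 5 FPKM, and 1.55 with libraries shifted to one median, and 21 members with neither overlap nor copy were called higher. The gap between COX subunits and assembly factors ran from 0.40 to 1.15 in Control minus Unstimulated and from 0.69 to 1.44 in SMF minus Unstimulated with each library left out, and the latter was 1.45 with the length trend removed.

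The replicate block gave 23 members called higher in SMF against Control, 12 higher and 2 lower in Control against Unstimulated, and 36 higher in SMF against Unstimulated. Over all 14991 genes the same fits called 1837 higher, 1817 higher and 1851 lower, and 3359 higher. Deviations of libraries with the same number correlated at r = 0.02, 0.10 and 0.03 across genes in SMF against Control, Control against Unstimulated and SMF against Unstimulated. In Control against Unstimulated the number marks a shared run folder, and the block took away the call of *Cycs*. In the comparisons with SMF the libraries share only a number.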
